A study of Homo sapiens with 4 samples.

Results

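Ribosome footprints on 8 genes of catenins and junction adaptors were examined in human melanocytes after an siRNA against CDH3-AS1. The genes were CTNNB1, CTNNA1, CTNND1, JUP, PKP2, PKP4, ARVCF and AFDN, taken by name from the deposited tables, with earlier results of these data known. Of the 8, 7 had rows, out of 14355 gene names and 38455 transcripts, and PKP2 was not analysed here. All 7 passed edgeR's filter on low counts, so no member was lost or kept through the level of a single group.

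The cells were Hermes 4B, a line of skin melanocytes labelled WT, so both groups share the background of a single line. They were transfected at 50% confluency with 25 to 50 nM siRNA, either siCDH3AS1, directed at the antisense RNA CDH3-AS1, or siCtrl, a control siRNA. Both groups grew in RPMI1640 with 10% serum, stem cell factor (10 ng/mL), cholera toxin (200 pM), endothelin-1 (10 nM) and the phorbol ester TPA (200 nM). Cells were washed and lysed with 100 µg/mL cycloheximide, which holds ribosomes on the RNA. Both siRNAs were sequenced once in batch 1 and once in batch 2. The labels do not name separate cultures. Apart from Fisher's exact tests, any p-value here reflects the spread of 4 libraries, which may be technical only. The edgeR, DESeq2 and limma fits share that spread between genes, so their p-values do not rest on a gene's own libraries alone. Fisher's exact tests compare reads of single libraries and reflect counting error only. The series concerns the control of CDH3, the gene of P-cadherin, by CDH3-AS1, and the genes described here encode the proteins that bind the cytoplasmic side of cadherins and nectins.

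Catenins tie cell adhesion molecules to the cytoskeleton. Beta-catenin or its relative plakoglobin (JUP) binds the tail of a classical cadherin, alpha-catenin joins that complex to actin, and p120-catenin (CTNND1) binds closer to the membrane and holds the cadherin at the surface. Beta-catenin that is not at junctions is marked for destruction by a complex of APC, axin and kinases, and under WNT signalling it enters the nucleus and acts with TCF and LEF factors. In skin, melanocytes are held to keratinocytes by E- and P-cadherin.

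The libraries held 6759850 and 2858835 reads for siCDH3AS1 1 and 2, and 2034854 and 5994485 reads for siCtrl 1 and 2. Levels are given in CPM, counts of coding-sequence reads scaled to a common coding-sequence total of 1000000 per library. A gene with 3 reads stood at 0.473 and 1.15 CPM in siCDH3AS1, against 1.63 and 0.533 CPM in siCtrl. The 12 melanocyte markers summed to between 22011 and 41016 CPM, with all 12 detected in 3 libraries and 11 in siCtrl 1. Skeletal muscle markers (14 of 16 listed, MYLPF and TNNT3 at 0) summed to 13.5 and 5.75 CPM in siCDH3AS1, against 4248 and 7.82 CPM in siCtrl, so siCtrl 1 stood apart. The fibroblast marker sum (9 of 10 listed, COL3A1 at 0) was 35.8 and 35.6 CPM in siCDH3AS1 against 544 and 27.9 CPM in siCtrl. Most of the 544 CPM came from COL1A1 (379 CPM) and COL1A2 (111 CPM). DCN and PDGFRA had no reads in siCtrl 1, and FBLN1 lay between 27.2 and 33.7 CPM in all libraries, so the set did not rise as a whole. The cardiomyocyte marker sum (7 of 9 listed, NPPA and MYL7 at 0) was 6.62 and 1.15 CPM in siCDH3AS1 against 169 and 1.24 CPM in siCtrl. In siCtrl 1, MYH6 gave 147 CPM and ACTC1 19.5 CPM of this sum. TNNT2, TNNI3, MYBPC3 and NPPB had no reads in that library, so this set did not rise as a whole either. The keratinocyte marker sum (8 of 12 listed) stayed between 9.29 and 36.4 CPM, with KRT5, KRT6A, KRT15 and DSG3 at 0. Of it, KRT10 alone gave 8.03 and 35.3 CPM in siCDH3AS1, against 8.14 and 30.0 CPM in siCtrl. Every other keratinocyte marker stayed at or under 5.43 CPM. Under the model with the batch described below, 4 of 12 melanocyte markers (EDNRB, KIT, MLANA and TYR) were called lower in siCDH3AS1. So were the 3 tested muscle markers (ACTA1, PYGM and TPM2), beside 0.697% of all genes tested. On log2 CPM after TMM scaling, these 3 differed by -7.40, -4.91 and -5.11 in batch 1 and by -0.32, 0.33 and 0.26 in batch 2. That model thus also called genes that differed mainly in 1 batch. The part of these markers in the results for the catenins was not tested. The extent of the knockdown is not known, because CDH3-AS1 was not analysed here. CDH3 (chromosome 16, 68645310 to 68733771) had 179 and 192 CPM in siCDH3AS1, against 293 and 322 CPM in siCtrl.

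Of the 7 genes, CTNNB1 was the only member called between the siRNAs, and only by models that held the batch. CTNNB1 encodes beta-catenin and lies on chromosome 3, 41199505 to 41240443 (all coordinates on GRCh38.p14). Its level was 1492 and 1220 CPM in siCDH3AS1, against 2868 and 3593 CPM in siCtrl. The groups did not overlap, and the lowest control library was 1.92 times the highest siCDH3AS1 library. Both siCDH3AS1 libraries lay below both controls in 14.1% of all genes tested. Libraries of the same group differed by 1.22-fold in siCDH3AS1 and 1.25-fold in siCtrl. Group means were 1356 ± 192 CPM in siCDH3AS1 and 3231 ± 512 CPM in siCtrl (SD, n = 2 each). Relative to the control of its batch, siCDH3AS1 stood at 52.0% (batch 1) and 34.0% (batch 2). On log2 CPM after TMM scaling, CTNNB1, CTNNA1 and AFDN kept 1 direction in both batches, as did 54.3% of all genes tested, and the other 4 members had opposite directions, as did 45.7%. On plain CPM AFDN also had opposite directions.

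The call for CTNNB1 depended on whether the batch entered the model. Without the batch, edgeR's quasi-likelihood test gave a log2 fold change of -1.21 (SE 0.34), an unadjusted p of 0.0094 and an adjusted p of 1.00 over all genes, and it called 0 of 10469 genes (0.0%, with 225 genes at an unadjusted p under 0.05). DESeq2 called 2 genes without the batch (0.0191%), neither of them a member. With the batch as a replicate block, CTNNB1 fell by 1.21 on the log2 scale (SE 0.20, edgeR quasi-likelihood adjusted p = 2.07e-06), the twelfth smallest p of all genes. On 4 libraries that model leaves few degrees of freedom, so this p rests mostly on a spread pooled over genes. That model called 1 of the 7 members, against 1.62% of all genes tested, and it called 0.697% of all genes lower. DESeq2 with the block also called CTNNB1 (log2 fold change -1.20, SE 0.26, adjusted p = 0.00218), beside 0.544% of all genes, and limma on log2(RPKM + 1) with the block did not (-1.25, adjusted p = 0.226).

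On the scale of log2 CPM after TMM scaling, the within-batch differences of CTNNB1 were -0.91 and -1.51. Leaving out each library in turn without the block moved the log2 fold change between -1.35 and -1.02, always lower in siCDH3AS1 and with adjusted p between 0.469 and 1.00. Without siCtrl 1, the library with the high skeletal muscle marker sum, it was -1.34, and without siCtrl 2 it was -1.02. These are footprint levels, and no RNA-seq was analysed here, so less RNA and fewer ribosomes per RNA cannot be told apart. Nor can fewer cells with the RNA and less of it per cell in such bulk lysates.

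**Figure D1:**
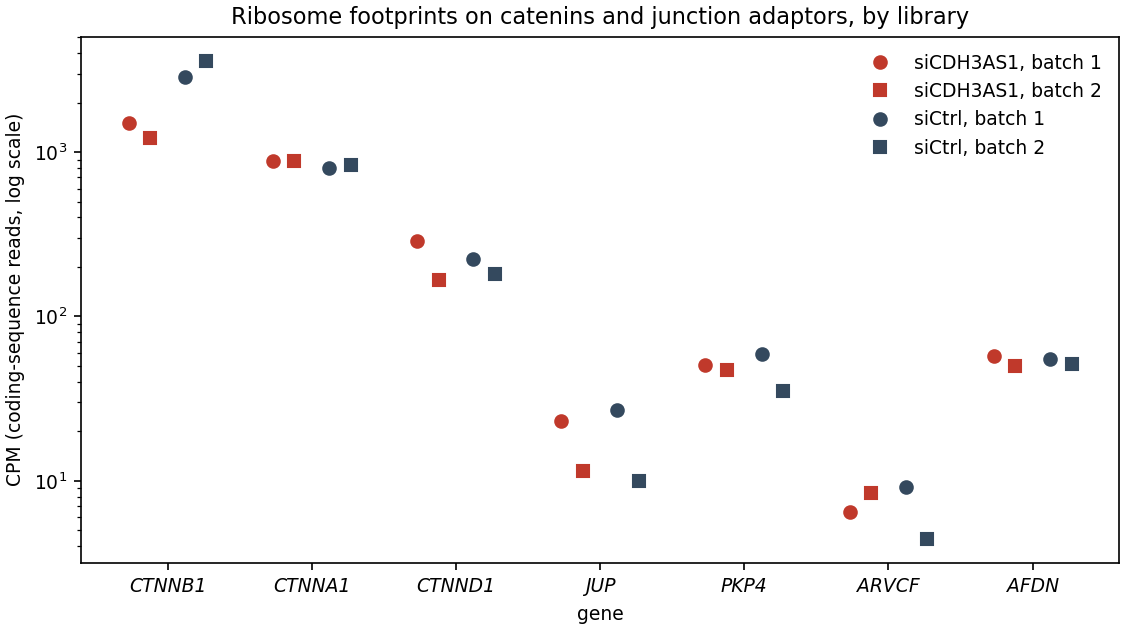
Level of each gene in each library, in CPM on a log axis, with siCDH3AS1 libraries in red to the left of siCtrl libraries in dark blue, circles for batch 1 and squares for batch 2. For CTNNB1 the red points at 1492 and 1220 CPM lie below the dark points at 2868 and 3593 CPM, while JUP follows the batch, with batch 2 libraries at 11.5 and 9.95 CPM, under the batch 1 libraries at 23.2 and 27.1 CPM.

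The tables list 11 transcripts of CTNNB1, of which 5 had coding-sequence reads. All 5 were lower in siCDH3AS1 in both batches, at 24.4% to 55.2% of the batch 1 control and 22.8% to 49.3% of the batch 2 control. The main transcript, ENST00000643541.1, held 85.1% and 82.0% of the gene's coding-sequence reads in siCDH3AS1, against 80.1% and 82.2% in siCtrl. Its own level was 1269 and 1001 CPM in siCDH3AS1, against 2299 and 2953 CPM in siCtrl. The 24.4% belonged to ENST00000644138.1, on 16 reads in siCDH3AS1 1 against 19 in siCtrl 1. The lower footprint level thus held for the 5 transcripts with coding reads, which are not separate measurements. The share of the main transcript was higher in siCDH3AS1 in batch 1 (85.1% against 80.1%) and nearly equal in batch 2 (82.0% against 82.2%). The 5 coding sequences are 1983 to 2370 bases long and overlap heavily, so the way reads were divided among them, which is not given in the sources used here, sets these shares.

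Reads in the 5′ UTR of CTNNB1, the stretch before the start codon, were a small part of its footprints. No transcript had reads in both its 5′ UTR and its coding sequence, so the 5′ UTR is described over the gene. It held 113 and 125 reads in siCDH3AS1, against 111 and 540 in siCtrl. As a share of 5′ UTR and coding reads this was 1.18% (95% Clopper-Pearson interval 0.973 to 1.42) and 3.78% (3.15 to 4.48) in siCDH3AS1, against 2.06% (1.70 to 2.47) and 2.60% (2.39 to 2.83) in siCtrl. The difference went opposite ways in the batches, with siCDH3AS1 minus siCtrl at -0.878 percentage points in batch 1 and 1.18 percentage points in batch 2.

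Within batch 1 Fisher's exact test, two-sided, gave p = 3.2e-05, and within batch 2 p = 2.46e-04. It compares single libraries, not the siRNAs. The same share over all genes moved in the same 2 directions, with 3.90% and 7.21% in siCDH3AS1 against 6.19% and 5.13% in siCtrl. The CTNNB1 share was below that of all genes in every library, at 0.302 and 0.524 times it in siCDH3AS1 and 0.332 and 0.507 times it in siCtrl. Set against all genes, the CTNNB1 share thus differed more between batches than between siRNAs. The intervals cover counting error only and treat reads as independent molecules, which was not checked.

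Scaled to 1000000 reads of all regions, 5′ UTR reads of CTNNB1 were at 16.7 and 43.7 in siCDH3AS1, against 54.5 and 90.1 in siCtrl. Both 5′ UTR and coding reads were therefore lower in siCDH3AS1 in both batches, the 5′ UTR at 30.6% and 48.5% of the control and the coding sequence at 53.9% and 33.0%. The 3′ UTR, where few ribosomes remain after the stop codon, held 31 and 16 reads in siCDH3AS1, against 7 and 49 in siCtrl. Its share of 3′ UTR and coding reads was 0.326% and 0.500% in siCDH3AS1, against 0.132% and 0.242% in siCtrl. It was higher in siCDH3AS1 in each batch, with Fisher's exact p of 0.027 and 0.0168 between the libraries, and the share over all genes was 2.37% and 1.75% in siCDH3AS1, against 3.70% and 1.09% in siCtrl.

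**Figure D2:**
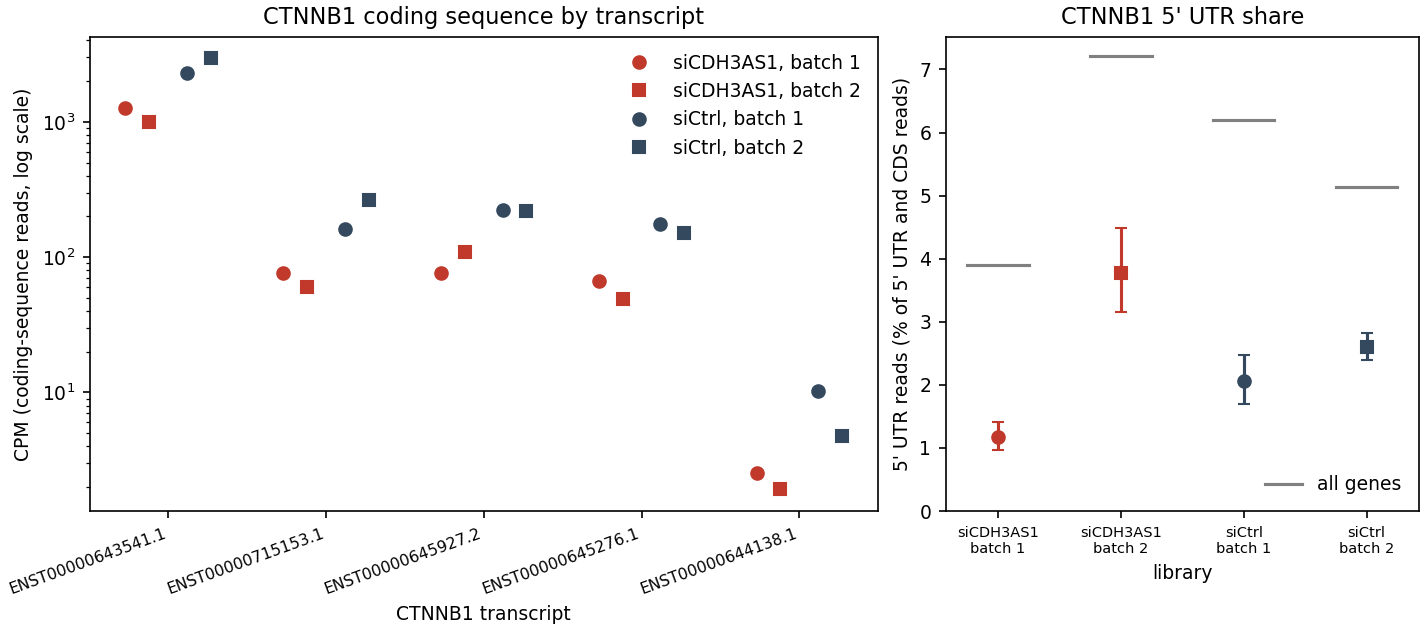
Left, coding-sequence CPM (log axis) of the 5 CTNNB1 transcripts with such reads, with siCDH3AS1 in red left of siCtrl in dark blue. Right, 5′ UTR reads as a percentage of 5′ UTR and coding reads with 95% Clopper-Pearson intervals and grey lines for all genes, where the CTNNB1 points lie between 1.18% and 3.78% and each is below its grey line.

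CTNNA1 encodes alpha-E-catenin, the link from beta-catenin to actin, and lies on chromosome 5, 138753425 to 138935034. Its level was 879 and 884 CPM in siCDH3AS1, against 795 and 833 CPM in siCtrl. The groups did not overlap, and the lowest siCDH3AS1 library stood 1.05 times above the highest control library. Means were 881 ± 3.06 CPM in siCDH3AS1 and 814 ± 27.5 CPM in siCtrl (SD, n = 2 each), and 13.3% of all genes tested had both siCDH3AS1 libraries above both controls. With the block the log2 fold change was 0.16 (SE 0.22, edgeR quasi-likelihood adjusted p = 0.918), and without it the SE was 0.31 and the adjusted p 1.00, so CTNNA1 was not called. Within batches 1 and 2 alpha-catenin stood at 111% and 106% of the control, beside 52.0% and 34.0% for its partner beta-catenin.

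To compare levels between genes, reads were divided by the length of the longest coding sequence with reads, in kb, and scaled to the library's total reads as in RPKM. On this density scale CTNNB1 stood at 591 and 470 in siCDH3AS1, against 1096 and 1423 in siCtrl. CTNNA1 stood at 303 and 296 in siCDH3AS1, against 264 and 288 in siCtrl. Beta-catenin thus had 1.95 and 1.59 times the density of alpha-catenin in siCDH3AS1, against 4.14 and 4.95 times in siCtrl. By the authors' deposited RPKM, summed over transcripts, the ratio was 0.978 and 0.788 in siCDH3AS1, against 2.30 and 2.50 in siCtrl. The sum counts a 303-base CTNNA1 coding sequence (ENST00000520339.5) in full, so the order of the pair in siCDH3AS1 depends on how transcripts are combined, while the ratio was lower in siCDH3AS1 on either scale.

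By group means of density, the order over the 7 genes was the same in both groups, namely CTNNB1, CTNNA1, CTNND1, PKP4, AFDN, JUP and ARVCF. Ranges of neighbours overlapped only for AFDN and JUP. CTNNB1 averaged 530 ± 85.6 in siCDH3AS1 and 1260 ± 232 in siCtrl (SD, n = 2 each), whereas ARVCF averaged 2.38 ± 0.399 and 2.17 ± 1.02. Among the 13861 genes with coding reads, CTNNB1 ranked 195 and 270 by density in siCDH3AS1, against 90 and 48 in siCtrl. CTNNA1 ranked 452 and 461 in siCDH3AS1, against 560 and 509 in siCtrl. On this scale CTNNB1 lay lower in the order of all genes in siCDH3AS1 and stayed above CTNNA1 there. By summed RPKM CTNNB1 ranked 232 and 320 in siCDH3AS1, below CTNNA1 at 228 and 221. Mean summed RPKM put AFDN above PKP4 in siCtrl (13.4 and 12.1) and PKP4 above AFDN in siCDH3AS1 (12.7 and 12.5).

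**Figure D3:**
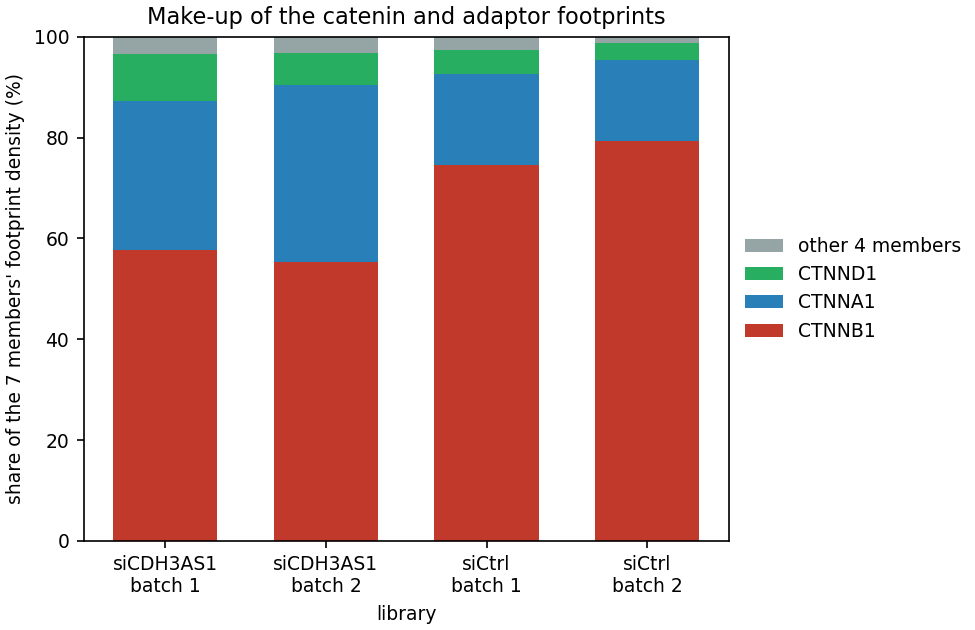
Share of the summed footprint density of the 7 genes taken by CTNNB1, CTNNA1, CTNND1 and the other 4, in percent, with 1 bar per library and siCDH3AS1 bars left of siCtrl bars. CTNNB1 took 57.6% and 55.4% in siCDH3AS1, against 74.5% and 79.3% in siCtrl, and CTNNA1 took 29.6% and 34.9%, against 18.0% and 16.0%.

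The p120 family comprises CTNND1, PKP4 and ARVCF, armadillo-repeat proteins that bind the membrane-near part of cadherin tails. CTNND1, on chromosome 11, 57761802 to 57819540, encodes p120-catenin itself. It had 290 and 168 CPM in siCDH3AS1, against 225 and 182 CPM in siCtrl. The groups overlapped, and both batch 1 libraries stood above both batch 2 libraries. Its log2 fold change with the block was 0.17 (SE 0.25, edgeR quasi-likelihood adjusted p = 0.932), with 0.40 in batch 1 and -0.07 in batch 2. The coding transcript ENST00000524630.5 held 84.9% and 80.8% of its reads in siCDH3AS1, against 86.7% and 79.2% in siCtrl.

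PKP4, on chromosome 2, 158456952 to 158681429, encodes plakophilin 4, found at adherens junctions and desmosomes. It had 50.6 and 47.5 CPM in siCDH3AS1, against 59.2 and 35.0 CPM in siCtrl. The siCDH3AS1 libraries lay between the controls, and the log2 fold change with the block was 0.15 (SE 0.31, edgeR quasi-likelihood adjusted p = 0.959). Its 5′ UTR held 5.03% and 10.1% of its 5′ UTR and coding reads in siCDH3AS1, against 9.17% and 9.63% in siCtrl, in each library above the share over all genes, on 11 to 21 reads. The lower bound of the 95% interval was above the share over all genes in siCtrl 2 only.

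ARVCF, on chromosome 22, 19965134 to 20016823, encodes a p120 relative that was the least covered member. It had 6.46 and 8.43 CPM in siCDH3AS1, against 9.23 and 4.44 CPM in siCtrl, on 41 and 22 reads against 17 and 25. The groups overlapped at these counts, and the log2 fold change with the block was 0.23 (SE 0.58, edgeR quasi-likelihood adjusted p = 0.961). At this depth differences of the size of that SE were not detectable.

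JUP, on chromosome 17, 41754609 to 41786711, encodes plakoglobin, the closest relative of beta-catenin, which serves adherens junctions and desmosomes. It had 23.2 and 11.5 CPM in siCDH3AS1, against 27.1 and 9.95 CPM in siCtrl, on 147 and 30 reads against 50 and 56. The groups overlapped fully, and the log2 fold change with the block was 0.01 (SE 0.40, edgeR quasi-likelihood adjusted p = 0.999). Both batch 2 libraries lay below both batch 1 libraries. With the siRNA as covariate, JUP was lower in batch 2 than in batch 1 by a log2 fold change of -1.17 (SE 0.40, edgeR quasi-likelihood adjusted p = 0.0245), 1 of the 7 members, against 15.8% of all genes and 6.3% lower. DESeq2 gave -1.22 with an adjusted p of 0.181, so the call was lost. A share of 1 in 7 is near that background and is no result about the members.

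The other 6 members did not pass the batch test, with CTNND1 nearest at -0.52 (SE 0.25, edgeR quasi-likelihood adjusted p = 0.149) and CTNNB1 at 0.05 (SE 0.20, adjusted p = 0.915). The desmosomal genes that were tested did not follow JUP in common. DSG2 (a desmosomal cadherin) and DSP (desmoplakin, which binds intermediate filaments) rose in batch 2 relative to batch 1, by 1.12 and 1.41 on the log2 scale (edgeR quasi-likelihood adjusted p = 5.86e-04 and 0.00325). PERP, a desmosomal membrane protein, fell by 0.67 (adjusted p = 0.0453). Muscle markers summed to 5.75 and 7.82 CPM in the batch 2 libraries and to 13.5 and 4248 CPM in the batch 1 libraries, and their part in the JUP difference was not tested.

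Plakoglobin can stand in for beta-catenin at junctions, so the pair was set against each other within each library. The ratio of deposited RPKM, CTNNB1 over JUP, was 62.0 and 102 in siCDH3AS1, against 102 and 349 in siCtrl. On the log2 scale the siCDH3AS1 mean was 1.25 below the control mean (siCDH3AS1 minus siCtrl, -1.25), with -0.72 within batch 1 and -1.77 within batch 2. Leaving out 1 library moved it between -2.13, without siCtrl 1, and -0.36, without siCtrl 2. The groups overlapped, since siCDH3AS1 2 and siCtrl 1 both stood near 102. An exact permutation test over the libraries, two-sided, gave p = 0.667, where 0.333 is the smallest p that 2 against 2 allows.

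AFDN, on chromosome 6, 167826564 to 167972023, encodes afadin, which joins nectins to actin. It had 57.7 and 50.2 CPM in siCDH3AS1, against 55.4 and 51.7 CPM in siCtrl. All 4 libraries lay within a narrow range and the groups overlapped, with a log2 fold change of 0.05 with the block (SE 0.30, edgeR quasi-likelihood adjusted p = 0.989). Its transcript ENST00000515794.3 held 90.2% and 89.3% of its coding reads in siCDH3AS1, against 92.2% and 83.2% in siCtrl.

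**Figure D4:**
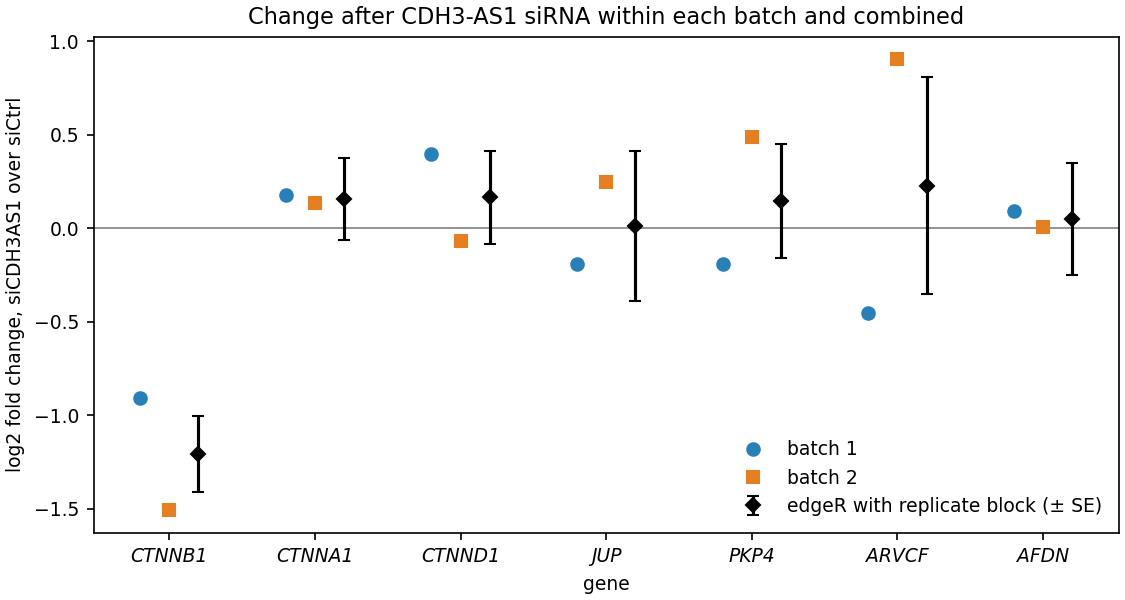
Log2 fold change of each gene, siCDH3AS1 over siCtrl, within batch 1 (circles), within batch 2 (squares) and from edgeR with the replicate block (diamonds, bars are ± SE). CTNNB1 lies at -0.91, -1.51 and -1.21, and the diamonds of the other 6 genes lie between 0.01 and 0.23.

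Of the other catenin and plakophilin genes (6 listed), only CTNNAL1, an alpha-catenin relative, was tested. It had 55.4 and 47.9 CPM in siCDH3AS1, against 41.8 and 57.4 CPM in siCtrl, and was not called. CTNNA2, CTNNA3, CTNND2, PKP1 and PKP3 stayed at or under 1.42 CPM. These 5 genes were too low to be tested.

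The classical cadherins, to whose tails the catenins bind, were represented by 3 tested genes of 18 listed. CDH19, a cadherin of the neural crest lineage, had 179 and 177 CPM in siCDH3AS1, against 48.8 and 124 CPM in siCtrl. It rose in siCDH3AS1 with the block (log2 fold change 1.19, SE 0.27, edgeR quasi-likelihood adjusted p = 0.00178), with 1.90 in batch 1 and 0.56 in batch 2. Leaving out 1 library without the block moved it between 0.59, without siCtrl 1, and 1.92, without siCtrl 2. CDH3 was at -0.68 (SE 0.25, adjusted p = 0.168) and CDH2, the gene of N-cadherin, at 0.59 (adjusted p = 0.325), so neither passed. CDH1, the gene of E-cadherin, had 0.63 CPM and no reads in siCDH3AS1, against 2.71 CPM and no reads in siCtrl. CTNNB1 and CDH3 were both lower in both batches, as were 2914 of 10469 genes tested on log2 CPM after TMM scaling, and CDH3 did not pass the test. CDH2 and CDH19 were higher in both batches.

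Among nectins and afadin partners, the 2 genes called with the block were higher in siCDH3AS1, and the list as a whole was mixed. Of 11 listed genes, 10 were tested, 2 were called higher with the block (0.927% of all genes were) and 0 lower, with a median log2 fold change without the block of 0.11 beside -0.03 for all genes. Within batches the median was 0.66 in batch 1 and -0.02 in batch 2. On log2 CPM after TMM scaling, 4 genes were higher in both batches and 1 was lower in both, NECTIN1 (-0.51 and -0.46). NECTIN2, a nectin that afadin binds, had 266 and 182 CPM in siCDH3AS1, against 173 and 77.5 CPM in siCtrl. It rose by a log2 fold change of 0.97 with the block (SE 0.26, edgeR quasi-likelihood adjusted p = 0.0153), and the groups did not overlap. Leaving out siCtrl 2 gave 0.44 without the block, and leaving out siCtrl 1 gave 1.59. Counting only its transcript with the most reads, the adjusted p with the block was 0.073.

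SORBS2, an adaptor of actin structures, had 170 and 239 CPM in siCDH3AS1, against 84.1 and 147 CPM in siCtrl. It rose by 0.89 with the block (SE 0.26, edgeR quasi-likelihood adjusted p = 0.0381). The call was lost when only its transcript with the most reads was counted (0.53, adjusted p = 0.615). Without the block and without siCtrl 1 it was 0.54, without siCDH3AS1 2 it was 0.57, and without siCtrl 2 it was 1.34. DESeq2 with the block called neither NECTIN2 nor SORBS2, nor CDH19.

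The actin linkers of adherens junctions (12 tested of 15) and the tight junction scaffolds (10 of 15) had 0 genes called in either direction with the block. At 1.62% of all genes called, these counts are near the background and are no result about the lists. Median log2 fold changes without the block were 0.13 and 0.19. VCL, the gene of vinculin, which binds stretched alpha-catenin, had 189 and 244 CPM in siCDH3AS1, against 126 and 193 CPM in siCtrl, and missed the threshold (log2 fold change with the block 0.50, adjusted p = 0.501). FMN1, a formin that binds alpha-catenin, was at -0.50 (adjusted p = 0.445), and without the block and siCtrl 2 at -0.33. F11R, the gene of the junction adhesion molecule JAM-A, was at -0.54 (adjusted p = 0.563), and without the block and siCtrl 1 at -0.33. For these lists the direction of single genes was mixed, with 4 actin linkers higher and 4 lower in both batches.

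The destruction complex, which marks free beta-catenin for degradation, had 16 of 18 genes tested and 0 called with the block. Its median log2 fold change was -0.0051 with the block and 0.05 without it. The scaffolds APC and AXIN1 and the kinase GSK3B had log2 fold changes with the block of 0.09, 0.07 and -0.04. CSNK1A1, the kinase that primes beta-catenin for GSK3, had 140 and 143 CPM in siCDH3AS1, against 207 and 203 CPM in siCtrl. Its groups did not overlap, and its log2 fold change of -0.49 did not pass with the block (SE 0.25, edgeR quasi-likelihood adjusted p = 0.522). At 1.62% of all genes called with the block, 0 of 16 is near the background and is no result about the complex.

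The nuclear partners of beta-catenin (14 of 16 tested) had 0 genes called with the block, beside 1.62% of all genes. That count is near the background and is no result about the list. The median log2 fold change of the list was 0.05 with the block and 0.06 without it. TCF7L2, a TCF factor, had 58.3 and 67.8 CPM in siCDH3AS1, against 24.4 and 52.4 CPM in siCtrl (log2 fold change with the block 0.81, SE 0.31, edgeR quasi-likelihood adjusted p = 0.212). Leaving out 1 library without the block moved it between 0.33 and 1.41. LEF1, also counted among the targets, had 55.1 and 39.5 CPM in siCDH3AS1, against 61.9 and 62.0 CPM in siCtrl, with an adjusted p of 0.803 with the block. Without the block and 1 library it lay between -0.58 and -0.14. The groups did not overlap for either gene, and neither passed the test.

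Of 17 genes known as targets of beta-catenin in other settings, 8 passed the filter and 0 were called with or without the block. With the block 1.62% of all genes were called, so 0 of 8 is near the background and is no result about the targets. Their median log2 fold change without the block was 0.08. CCND1, the gene of cyclin D1, had 2776 and 2294 CPM in siCDH3AS1, against 2408 and 2513 CPM in siCtrl. MYC had 211 and 249 CPM in siCDH3AS1, against 172 and 255 CPM in siCtrl. Both genes overlapped between the groups. AXIN2, a target common to many tissues, had 1.10 and 1.15 CPM in siCDH3AS1, against 4.88 and 1.60 CPM in siCtrl, too low to be tested. MITF, the master regulator of melanocytes, had 580 and 864 CPM in siCDH3AS1, against 606 and 1225 CPM in siCtrl, and was not called (adjusted p = 0.834 with the block).

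**Figure D5:**
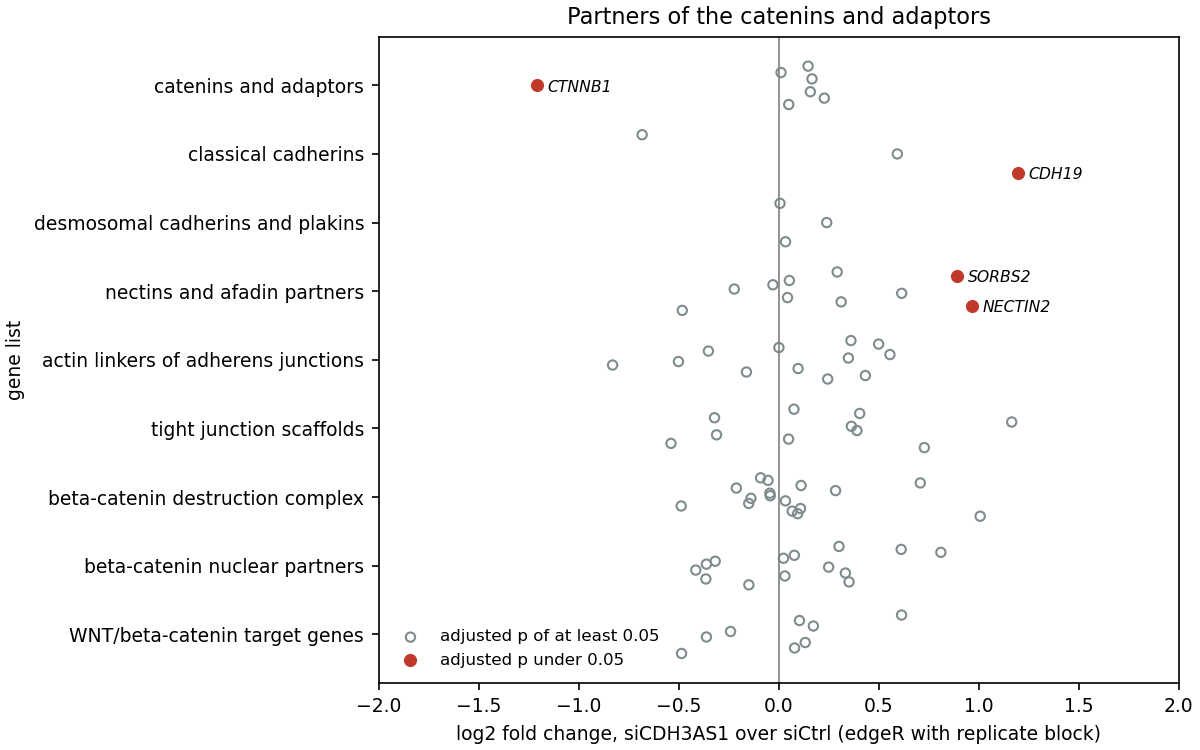
Log2 fold change, siCDH3AS1 over siCtrl, from edgeR with the replicate block, for each tested gene of 9 lists, with filled red points for an adjusted p under 0.05 and open grey points otherwise. The red points are CTNNB1 at -1.21, SORBS2 at 0.89, NECTIN2 at 0.97 and CDH19 at 1.19.

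The genes whose levels over the 4 libraries were most like those of CTNNB1 were sought among 7017 genes with a mean of at least 20 CPM. Likeness was the root mean square difference of log2 CPM after centring each gene on its mean. SLC35F5, a solute carrier family member, came first at 0.0509, with 132 and 107 CPM in siCDH3AS1, against 244 and 290 CPM in siCtrl. NEK7 (a kinase), PAFAH1B2, CKLF and CYP51A1 (an enzyme of cholesterol synthesis) followed at 0.0939, 0.113, 0.133 and 0.147. The pattern they share rests on 4 libraries and says nothing of shared function.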

How the data were processed

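The authors deposited, per the file headers, a table per library with the count of reads in the 5′ UTR, coding sequence and 3′ UTR of each transcript, and the RPKM of each region, which the values show to be scaled by the library's reads in all regions. The submitters' processing notes name hg38 and DESeq2. Aligner, counter, annotation release and strand setting: not given in the sources used here. Files list transcripts with at least 1 read.

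Coding-sequence counts were summed by gene name and tested over all genes with edgeR 4.0.16 in R 4.3.3 (filterByExpr with minimum count 10, TMM, quasi-likelihood test, Benjamini-Hochberg adjustment, threshold 0.05), which kept 10469 genes. DESeq2 1.42.0 and limma 3.58.1 were alternatives. The steps were tested on simulated data. Libraries with the same number share a batch per the labels, and their deviations from group means correlated (r = 0.58), so the batch is a replicate block, given where it changes a call. Replicates differed by far more than sampling noise (chi-square per degree of freedom 36.4 in siCDH3AS1 and 44.0 in siCtrl). Limma ran on log2(RPKM + 1), which understates changes of low genes. Gene coordinates and 13900 matched symbols come from the RefSeq table of GRCh38.p14.

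Named genes are all members, CDH3, per list those past the threshold or otherwise the gene of largest change with at least 20 CPM and the same direction in both batches, and the 5 genes most like CTNNB1. CDH1, CDH2, VCL, APC, AXIN1, AXIN2, GSK3B, CCND1, MYC, MITF, DSG2, DSP, PERP and family members were named beside the rule, after their values were seen. Members and lists were chosen with earlier results of these data known. Near-identical transcripts can share reads, and strand is unknown, so overlapping genes are uncertain. PKP2 and CDH3-AS1 were not analysed here, and 1 gene list is not reported here.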

Additional observations from a re-analysis of the deposited data

Results flagged for a closer look

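In 4 of the 7 members the libraries moved opposite ways in the 2 batches, as did 45.7% of all genes tested. The log2 fold change of batch 2 minus that of batch 1 was -0.47 for CTNND1 (-0.07 in batch 2 and 0.40 in batch 1), 0.44 for JUP (0.25 and -0.19), 0.68 for PKP4 (0.49 and -0.19) and 1.35 for ARVCF (0.90 and -0.45). The CTNNB1 5′ UTR share, siCDH3AS1 minus siCtrl, was 1.18 percentage points in batch 2 and -0.878 in batch 1, which differ by 2.05 percentage points, and the share over all genes moved in the same directions. Each batch holds 1 library per siRNA, so none of these differences between batches was tested.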

How the results depend on the processing

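Same-numbered libraries share a batch, and the replicate block changed the count of genes called between the siRNAs, which was 0 by edgeR without it and 170 with it, and 2 and 57 by DESeq2. Without the block, edgeR without a filter called 52 genes. Limma with the block called 7. Fits with the block combined with another choice were added after seeing the data. They called 149 genes with the transcript of most reads, 167 without muscle and other foreign markers, 171 with upper-quartile scaling, 227 with no filter, 127 with at least 50 reads in each library and 191 with all 3 regions, and each, as the block by edgeR and DESeq2, called 1 member, CTNNB1. In the same order its log2 fold change was -1.18 (adjusted p = 2.63e-05), -1.21 (2.65e-06), -1.20 (3.11e-06), -1.21 (2.9e-07), -1.21 (6.39e-06) and -1.21 (3.43e-05), beside -1.21 (2.07e-06) and -1.20 (0.00218) with the block alone. Over its 22 alternatives it stayed between -1.35 and -1.02. Leaving out 1 library without the block called 0 to 73 genes and 0 members, the lone library then taken to vary like the others. DESeq2 called 694 genes between batches where edgeR called 1657.

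Of the uncalled members, CTNNA1 kept its sign in all 22 alternatives (0.13 to 0.21), and the other 5 changed sign in some. JUP stood at -0.0035 by DESeq2, -0.011 and -0.0042 by limma on log2(RPKM + 1) and log2(RPKM + 0.1), -0.011 by limma with the block, -0.017 by its top transcript, -2.1e-04 with all 3 regions, and -0.0018 and -0.0033 for the last pair with the block. Leaving out 1 library moved it between -0.57 and 0.86, CTNND1 between -0.21 and 0.54, PKP4 between -0.20 and 0.55, ARVCF between -0.25 and 0.74 (-0.018 without siCDH3AS1 2) and AFDN between -0.031 and 0.13. AFDN was at -0.11, -0.12 and -0.11 by limma on log2(RPKM + 1), on log2(RPKM + 0.1) and with the block. The cause was not tested. The CTNNB1 to JUP difference lay between -2.13 and -0.36 without 1 library. The 5′ UTR share of the CTNNB1 transcript with most reads has no value, since it has 0 such reads. ARVCF and JUP rest on 17 to 147 reads per library, which limits both.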
